A study of Mus musculus with 123 samples.

Results

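The 10 genes described here form 5 isoform pairs of the mitochondrial machinery that makes and exports ATP, out of 23337 gene rows in the count table. They were picked by name: Cox6a2 with Cox6a1, Cox7a1 with Cox7a2, Cox8b with Cox8a, Cox4i2 with Cox4i1, and Slc25a4 with Slc25a5. Cytochrome c oxidase, complex IV of the respiratory chain, passes electrons from cytochrome c to oxygen and pumps protons. Its catalytic core is encoded by mitochondrial DNA, and nuclear subunits surround that core. Several of these subunits exist as a ubiquitous form and a tissue form: Cox6a2, Cox7a1 and Cox8b are the forms of heart and skeletal muscle, while Cox6a1, Cox7a2 and Cox8a are found in most tissues. Cox4i2 is not a muscle isoform but a form known from lung and from cells that respond to low oxygen. Slc25a4 (ANT1) and Slc25a5 (ANT2) are adenine nucleotide translocases, carriers that exchange ADP for ATP across the inner mitochondrial membrane, and Slc25a4 is the form that prevails in mature heart and muscle.

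Single cells came from hearts of αMHC-GFP mice at 3 ages, the embryonic days E9.5 and E12.5 and the first day after birth (P1), with no other allele or treatment named. GFP in this strain is driven by the promoter of αMHC (Myh6), a sarcomere gene of cardiomyocytes (CMs), so the sort itself selected for that gene, and all 3 time points share the transgene. Cells were captured on Fluidigm C1 chips, and the 112 of 123 deposited cells with 2000 or more genes were used (42 from E9.5, 29 from E12.5, 41 from P1). The embryonic hearts and the P1 hearts were digested with different enzymes, so digestion and age cannot be told apart. The labels name no animal, litter or chip. Each time point was therefore taken as 1 sample of cells, and cells were not used as replicates in any test. The cell titles fall into naming sets, which are the only repeat available: C (14 cells) and N530 (28 cells) at E9.5, C (20 cells), N523 (8 cells) and 1 cell of a set of its own, E12-5b, at E12.5, and C alone at P1. What the sets stand for is not given, and differences between time points are given with their SD or range over combinations of these sets.

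Total counts per cell ran from 268301 to 6351742 at E9.5, from 148258 to 7711355 at E12.5 and from 69522 to 327360 at P1, so the P1 cells were the shallowest. Summed levels of 10 CM markers, among them Tnnt2 and Actc1, were at 5000 counts per 1000000 (CPM) or more in 38 of 42, 29 of 29 and 40 of 41 cells. Macrophage markers were at 0 in 42 of 42, 27 of 29 and 40 of 41 cells, and endothelial markers exceeded 5000 CPM in 1 P1 cell. Fibroblast, epicardial, erythroid, and smooth muscle and pericyte markers stayed under 5000 CPM in all cells. That limit was set for the more abundant CM markers and does not show that other cell types were absent. At E9.5 the highest cells reached 4007 CPM for fibroblast, 2695 CPM for epicardial, 1694 CPM for smooth muscle and pericyte, and 1246 CPM for endothelial markers.

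The share of an isoform among the read counts of its pair was computed in each cell with 10 or more counts of the pair. In the Cox6a pair and the Cox8 pair the muscle isoform took a much larger share at P1 than at either embryonic time point. In the Cox7a pair it did not, Cox4i2 was scarce throughout, and Slc25a4 held more than 50% of its pair in 32 of 42, 20 of 29 and 40 of 41 cells in order of age.

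**Figure D1:**
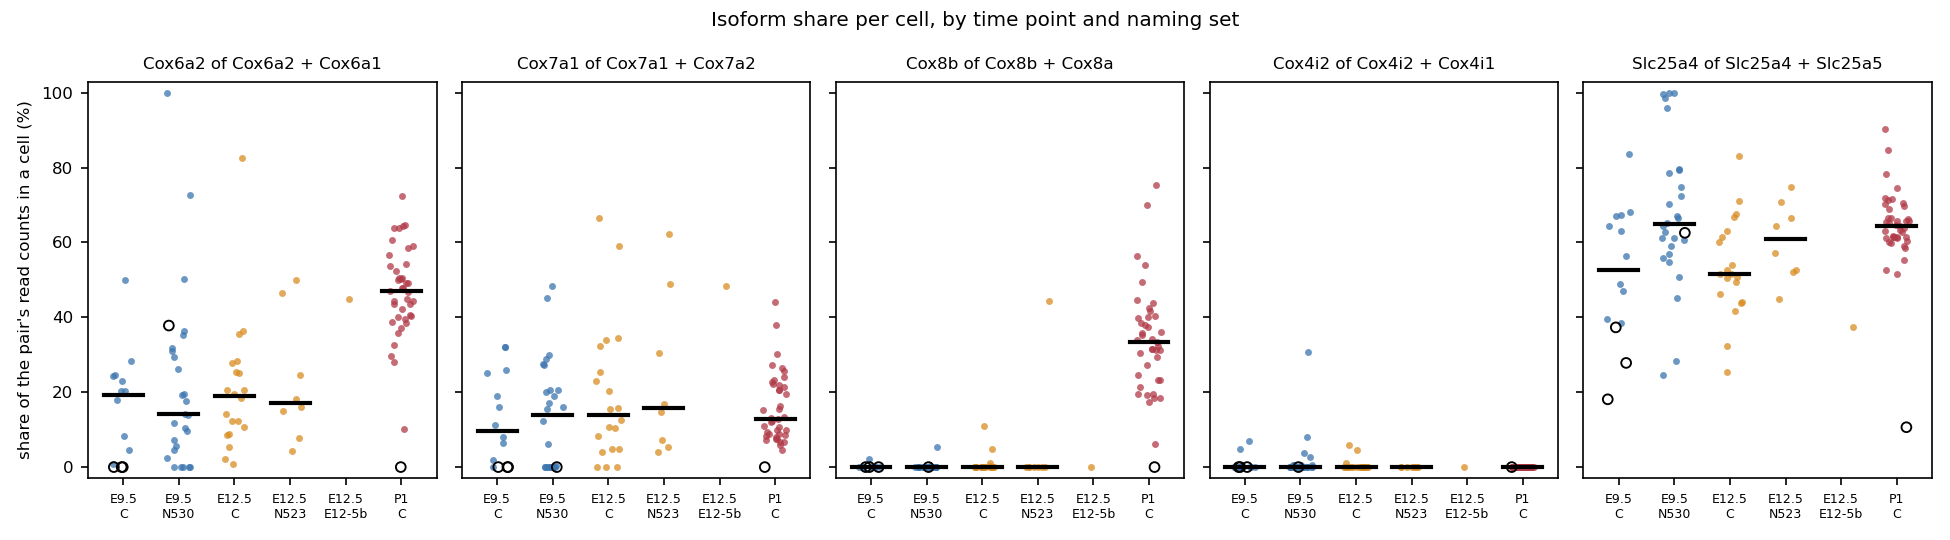
Each point is 1 cell, and the vertical axis gives the share (%) of the named isoform among the counts of its pair, by time point and naming set. Black bars are medians of sets of 6 cells or more, and open circles are cells with CM markers under 5000 CPM; the Cox6a2 median stands at 46.9% and the Cox8b median at 33.5% at P1.

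Cox6a2 encodes the muscle form of subunit VIa, a small regulatory subunit. Its share ran from 0 to 100% at E9.5 with a median of 17.5% (41 cells). At E12.5 it ran from 0.834 to 82.6% with a median of 18.4% (29 cells). At P1 it ran from 0 to 72.5% with a median of 46.9% (41 cells). The ranges overlapped, but 39 of 41 P1 cells lay above the E12.5 median, and the middle 50% of P1 cells lay between 40.1 and 53.7%. The embryonic time points were alike in both naming sets, with medians of 19.2% (C) and 14.2% (N530) at E9.5 and of 19.0% (C) and 17.1% (N523) at E12.5. The E12.5 minus E9.5 difference was 0.828 percentage points (SD 3.03 over 4 combinations of sets), which is within that spread. The P1 minus E12.5 difference was 28.5 points (SD 1.30 over 2 combinations). On the deposited TPM (transcripts per 1000000), which are scaled by gene length, the medians were 14.7, 15.4 and 41.7%.

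Levels separate both sides of this share. Pooled over the cells of a time point, Cox6a2 stood at 290, 758 and 1627 CPM in order of age. Its ubiquitous partner Cox6a1 stood at 1032, 2569 and 1835 CPM. From E9.5 to E12.5 both isoforms were higher by similar amounts, with log2 ratios of 1.39 for Cox6a2 and 1.32 for Cox6a1. From E12.5 to P1 Cox6a2 was higher by 1.10 on the log2 scale (0.99 to 1.98 over the sets) and Cox6a1 differed by -0.49 (-0.57 to 0.01). For the sum of both isoforms the pooled log2 ratio over the same interval was 0.06, but it ran from -0.04 (N523) to 0.63 (set C) over the sets, and was 0.52 for the mean over cells.

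Cox8b encodes the muscle form of subunit VIII, the smallest subunit of the complex. Its counts were 0 in most embryonic cells: the E9.5 cells with counts numbered 3 of 42 (7.14%, 95% exact binomial interval 1.50 to 19.5%). At E12.5 they numbered 6 of 29 (20.7%, 7.99 to 39.7%), and the P1 cells 40 of 41 (97.6%, 87.1 to 99.9%). All intervals cover counting error only. Its share had a median of 0 at E9.5 (highest 5.25%, 39 cells) and of 0 at E12.5 (highest 44.4%, 29 cells). At P1 the median was 33.5%, from 0 to 75.4% (41 cells). Of the 41 P1 cells, 40 lay above the highest E9.5 cell and 6 above the highest E12.5 cell. On TPM the P1 median was 43.01%.

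At E12.5 the pooled level of Cox8b came almost entirely from 1 cell. That N523 cell held 2945 of the 3022 counts, at 438 CPM, and its Cox6a2 share of 46.5% and Slc25a4 share of 74.7% also lay near or above the P1 medians. Its Cox7a1 share of 48.9% lay above every P1 cell (highest 44.1%). With that cell, the pooled levels of Cox8b were 1.97, 59.8 and 249 CPM in order of age. Without the cell of most counts, the E9.5 level was 0.0833 CPM and the E12.5 level 1.76 CPM. The P1 over E12.5 log2 ratio of 2.06 became 7.06 when the cell of most counts was left out at every time point. The ubiquitous Cox8a stood at 384, 671 and 480 CPM, and its log2 ratio from E12.5 to P1 was -0.48 (-0.51 to -0.37 over the sets). The summed level of Cox8a and Cox8b moved from 731 CPM at E12.5 to 729 CPM by P1, with log2 ratios of -0.05 to 0.21 over the sets.

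The promoter windows of this pair are shown because its members went separate ways after E12.5. They run from 250 bases before to 50 bases after the RefSeq start (GRCm38.p6), 5′ to 3′ on the gene's strand, at chr7:140900397-140900696 (minus strand) for Cox8b and chr19:7217567-7217866 (minus strand) for Cox8a. Capitals mark matches, on either strand, to CCGGAA, the core bound by ETS factors such as the nuclear respiratory factor GABP, or to TATAAA, the TATA box.
Cox8b: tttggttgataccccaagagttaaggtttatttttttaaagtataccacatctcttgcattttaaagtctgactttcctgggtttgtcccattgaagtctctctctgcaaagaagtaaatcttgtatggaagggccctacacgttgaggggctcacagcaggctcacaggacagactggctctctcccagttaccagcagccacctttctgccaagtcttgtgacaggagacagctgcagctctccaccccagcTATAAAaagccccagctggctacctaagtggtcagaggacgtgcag
Cox8a: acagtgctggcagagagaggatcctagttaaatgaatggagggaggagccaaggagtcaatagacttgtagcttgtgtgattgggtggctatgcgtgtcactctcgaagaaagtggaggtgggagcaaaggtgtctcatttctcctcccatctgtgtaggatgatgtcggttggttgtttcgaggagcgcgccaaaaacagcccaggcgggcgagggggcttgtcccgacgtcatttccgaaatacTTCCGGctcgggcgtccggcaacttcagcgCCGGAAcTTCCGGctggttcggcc
Cox8a held 3 matches to CCGGAA around its start and no TATAAA. Cox8b held no CCGGAA and 1 TATAAA, which began at position 5, counting the RefSeq start base as 1. CCGGAA was present in 14.9% and TATAAA in 13.6% of 32851 promoter windows of the same length. These matches are a description of the letters and not evidence of a bound factor.

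**Figure D2:**
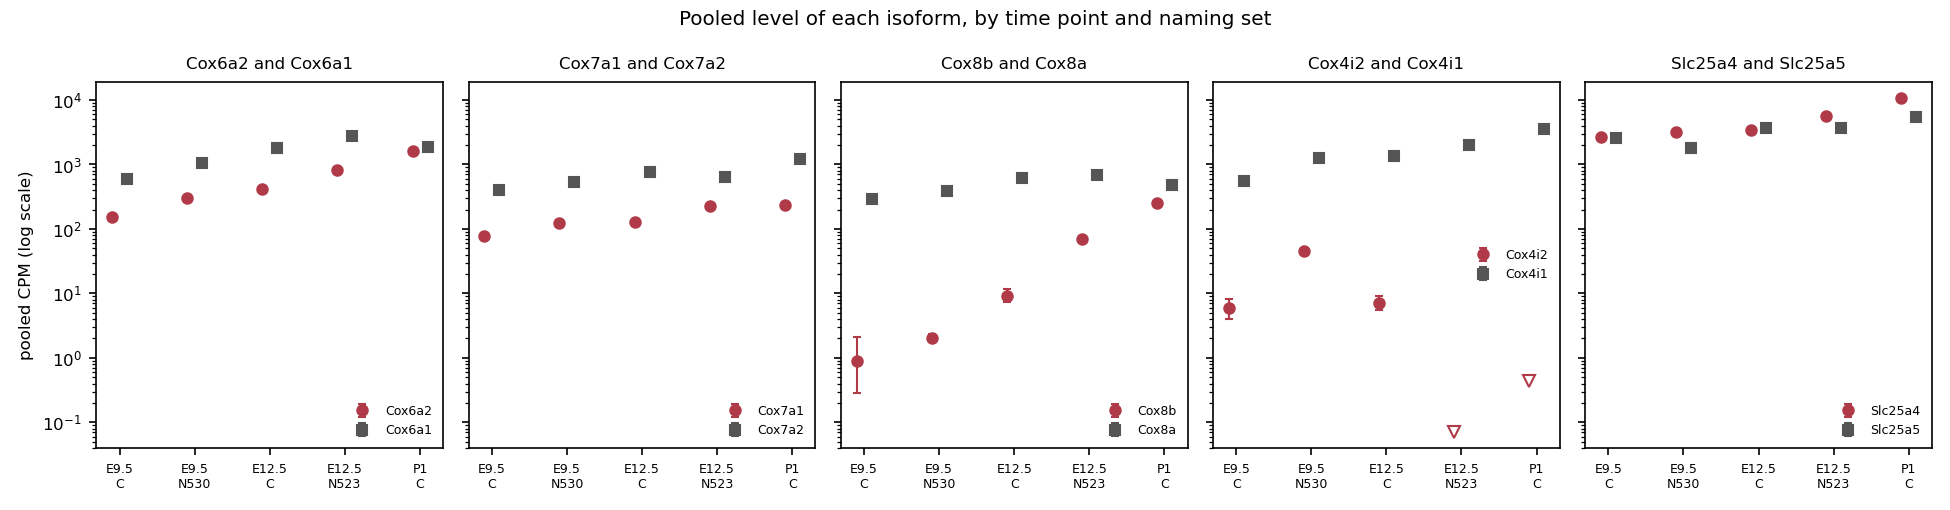
Pooled CPM (log axis) of each isoform in every naming set of 6 cells or more, red circles for the muscle or tissue isoform and grey squares for its partner, with exact 95% Poisson bars that are mostly smaller than the symbols. Open triangles mark sets with 0 counts, drawn at the level of 3 counts; Cox8b lies lowest in the E9.5 sets, at 1.97 CPM over both, and highest at P1, at 249 CPM.

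Cox7a1 encodes the muscle form of subunit VIIa, a subunit at the surface where complex IV meets its neighbours in the respiratory chain. It showed no comparable shift. Its share had a median of 11.8% at E9.5 (0 to 48.4%, 40 cells), 15.5% at E12.5 (0 to 66.7%, 29 cells) and 12.9% at P1 (0 to 44.1%, 41 cells). The P1 minus E12.5 difference was -2.60 points (SD 1.32 over 2 combinations) and the P1 minus E9.5 difference was 1.10 points (SD 3.01). With only cells over the CM marker limit, the P1 minus E9.5 difference became -2.70 points, and the E12.5 minus E9.5 difference of 3.69 points became -0.247. The P1 minus E12.5 difference kept its sign there but was 1.93 points after thinning to 100000 counts. On TPM the Cox7a1 medians were higher, at 21.6, 27.4 and 23.4% in order of age. More cells held the gene with age, 27 of 42, 26 of 29 and 40 of 41, and the spread over P1 cells (SD 9.38 points) was narrower than at E12.5 (SD 19.6 points). Both isoforms were higher at P1 than at E9.5, Cox7a1 with 121, 211 and 232 CPM and Cox7a2 with 519, 663 and 1215 CPM. From E12.5 to P1 the log2 ratio was 0.87 (0.67 to 0.91 over the sets) for the ubiquitous Cox7a2 and 0.14 (0.04 to 0.83) for Cox7a1. The order of these ratios turned in set C alone, with 0.67 for Cox7a2 and 0.83 for Cox7a1. A single E12.5 cell held 41.3% of the Cox7a1 counts of that age: without it the E12.5 level was 136 CPM, and without the cell of most counts at every time point the Cox7a1 ratio was 0.72.

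The windows of the Cox7a pair are shown for contrast, as a pair whose shares stayed close, at chr7:30183921-30184220 (plus strand) for Cox7a1 and chr9:79759804-79760103 (minus strand) for Cox7a2.
Cox7a1: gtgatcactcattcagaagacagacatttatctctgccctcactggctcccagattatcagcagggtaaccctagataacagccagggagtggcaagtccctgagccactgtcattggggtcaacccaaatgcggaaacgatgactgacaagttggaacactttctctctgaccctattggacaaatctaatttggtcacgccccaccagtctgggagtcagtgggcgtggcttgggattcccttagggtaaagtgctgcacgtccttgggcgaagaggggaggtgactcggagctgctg
Cox7a2: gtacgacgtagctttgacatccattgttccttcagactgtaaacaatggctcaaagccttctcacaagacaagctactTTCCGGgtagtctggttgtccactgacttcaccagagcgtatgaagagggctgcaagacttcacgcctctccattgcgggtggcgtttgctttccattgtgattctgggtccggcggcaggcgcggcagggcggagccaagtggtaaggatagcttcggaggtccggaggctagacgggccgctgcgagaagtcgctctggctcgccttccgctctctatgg
Cox7a2 held 1 CCGGAA and Cox7a1 none, and neither held TATAAA. Of the 7 members with a window in the RefSeq table, CCGGAA was found in Cox6a1 (1), Cox7a2 (1), Cox8a (3) and Slc25a4 (1), and not in Cox7a1, Cox8b or Slc25a5. GCGC and TGCGC set 1 base apart, the element of nuclear respiratory factor NRF1, matched in Cox6a1 only among the 7 (2 matches, against 4.60% of all windows with 1 or more). AGGTCA, the hexamer of nuclear receptors, and CTA and TAG set 4 bases apart, the element of MEF2 muscle factors, matched in none of the 7 (16.3% and 3.69% of all windows). Windows of Cox6a2, Cox4i1 and Cox4i2 were not analysed here. The 3 muscle oxidase isoforms share a chromosome, chr7 of GRCm38, at 30184144-30186078 for Cox7a1, 128205435-128206387 for Cox6a2 and 140898945-140900446 for Cox8b. Their partners lie on chromosomes 9, 5 and 19.

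Cox4i2 replaces Cox4i1, the ubiquitous form of subunit IV that takes part in control of the enzyme by ATP. Cox4i2 counts were found in 10 of 42, 3 of 29 and 0 of 41 cells in order of age, and the 0 counts of P1 allow a level of up to 0.440 CPM. The median share was 0 at every time point. Among the 10 E9.5 cells the share ran from 0.474 to 30.9% with a median of 3.23%, and among the 3 E12.5 cells from 0.983 to 5.80%. A single N530 cell held 3682 of the 4387 E9.5 counts, and without it the E9.5 level fell from 43.4 to 7.39 CPM. The 10 E9.5 cells were not short of CM markers, which summed to between 35418 and 91506 CPM. Markers of smooth muscle and pericytes, the heart cells best known for Cox4i2, were at 0 in 6 of the 10 and at most 182 CPM in the others. The direction from E9.5 to E12.5 rested on the naming set: in set C alone the log2 ratio was 0.28, against -5.22 in all cells. Cox4i1 was present in every cell, at 1241, 1861 and 3497 CPM.

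Slc25a4 was found in every kept cell. At E9.5 its share exceeded 50% in 25 of 28 N530 cells and in 7 of 14 set C cells, and of the summed set C counts of the pair it held 51.7%, against 48.8% for set C of E12.5. Its share had a median of 62.9% at E9.5 (18.1 to 100%, 42 cells), 52.6% at E12.5 (25.3 to 83.0%, 29 cells) and 64.3% at P1 (10.6 to 90.2%, 41 cells). The share at P1 exceeded 50% in 40 of 41 cells. The E12.5 median was lower within set C and within the N sets, and higher only for N523 against set C of E9.5. In set C the medians were 52.6% at E9.5 and 51.6% at E12.5, and in the N sets they were 64.9% (N530) and 60.9% (N523). Without the cells under the CM marker limit, the set C median was 63.1% at E9.5 (11 cells) and 51.6% at E12.5 (20 cells). The E12.5 minus E9.5 difference of -10.4 points had an SD of 8.87 points over 4 combinations, and ran from -13.3 to 8.21. The P1 minus E12.5 difference of 11.8 points kept its sign in both combinations (3.46 and 12.7 points). The P1 minus E9.5 difference of 1.42 points was within its spread (SD 8.66). Both carriers were higher at each later time point, Slc25a4 with 3137, 5221 and 10600 CPM and Slc25a5 with 1855, 3708 and 5508 CPM. Of 1166 stretches of 75 bases in the Slc25a5 transcript, 325 (27.9%) also occur in transcripts of 6 other annotated loci with Slc25a5-like or predicted-gene names, so its counts, and the level of the Slc25a4 share, are uncertain in all time points. For Cox6a1 the corresponding share was 6.44%, and the other members shared no such stretch with another gene, nor did the members of any pair with each other.

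Compared per length on the TPM scale, Slc25a4 was the highest of the 10 at P1, with a mean over cells of 15261 TPM. Cox4i1 (8618 TPM), Slc25a5 (7351 TPM), Cox6a1 (5839 TPM) and Cox6a2 (4044 TPM) followed. Cox7a2 stood at 2655 TPM, Cox8a at 1498 TPM, Cox8b at 1142 TPM and Cox7a1 at 1020 TPM. Within a pair, Cox6a1 remained above Cox6a2 and Cox8a above Cox8b in these P1 means, and only Slc25a4 exceeded its partner among the tissue isoforms.

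A gene was called, provided it reached 10 CPM in at least 1 of the time points compared, where its pooled CPM differed by 2-fold or more and in the same direction in every combination of naming sets. From E9.5 to E12.5, 3 of 10 members were called higher (Cox6a2, Cox6a1 and Cox8b), against 9.14% of 8647 genes, and none lower, against 21.7%. Cox8b reached 10 CPM there only through the N523 cell described above, and the Cox6a2 ratio was 0.77, under 2-fold, with 3000 genes per cell. The Cox6a1 ratio was 0.85 on the mean of deposited TPM, also under 2-fold. From E12.5 to P1, 3 of 9 were called higher (Cox6a2, Cox8b and Slc25a4), against 25.1% of 8122 genes, and none lower, against 23.4%. Cox6a2 and Slc25a4 stood close to the 2-fold limit, a log2 ratio of 1: with TMM factors their ratios were 0.84 and 0.76, and between set N523 and P1 they were 0.99 and 0.92, so both calls end under those settings. From E9.5 to P1, 6 were called higher (Cox6a2, Cox7a2, Cox8b, Cox4i1, Slc25a4 and Slc25a5), against 18.1% of 9003 genes. Cox4i2 was called lower, against 34.5% of all genes, and reached 10 CPM only through the single N530 cell described above. The median log2 ratio of all genes in these comparisons was -0.60, 0.05 and -0.59, and the share differences within a pair do not depend on that scale. The time points share cells between comparisons.

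Other nuclear subunits of complex IV, which have no muscle partner, give the background for the pairs. Of 8 (Cox5a, Cox5b, Cox6b1, Cox6c, Cox7b, Cox7c, Cox7a2l and Ndufa4), 2 (25.0%) were called higher at E12.5 than at E9.5, where 9.14% of all genes were. From E12.5 to P1, 3 (37.5%) were called higher, against 25.1% of all genes: Cox5b (1.60), Cox6c (1.15) and Cox7c (1.80, log2 ratios). From E9.5 to P1, 7 of 8 were called higher, against 18.1% of all genes, and Cox7a2l, a factor of supercomplex assembly, was not (0.83). The medians of their log2 ratios were 0.95, 0.84 and 1.81 in the 3 comparisons. From E12.5 to P1 the ubiquitous Cox6a1 and Cox8a, at -0.49 and -0.48, lay below all of the 8, of which Cox7a2l was lowest at -0.40, whereas Cox7a2 at 0.87 and Cox4i1 at 0.91 lay among them. With mean CPM over cells in place of pooled CPM, the Cox6a1 ratio was -0.02 and the Cox8a ratio -0.33. In set C alone they were 0.01 and -0.37, so the order against the 8 is given for pooled CPM over all cells only.

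**Figure D3:**
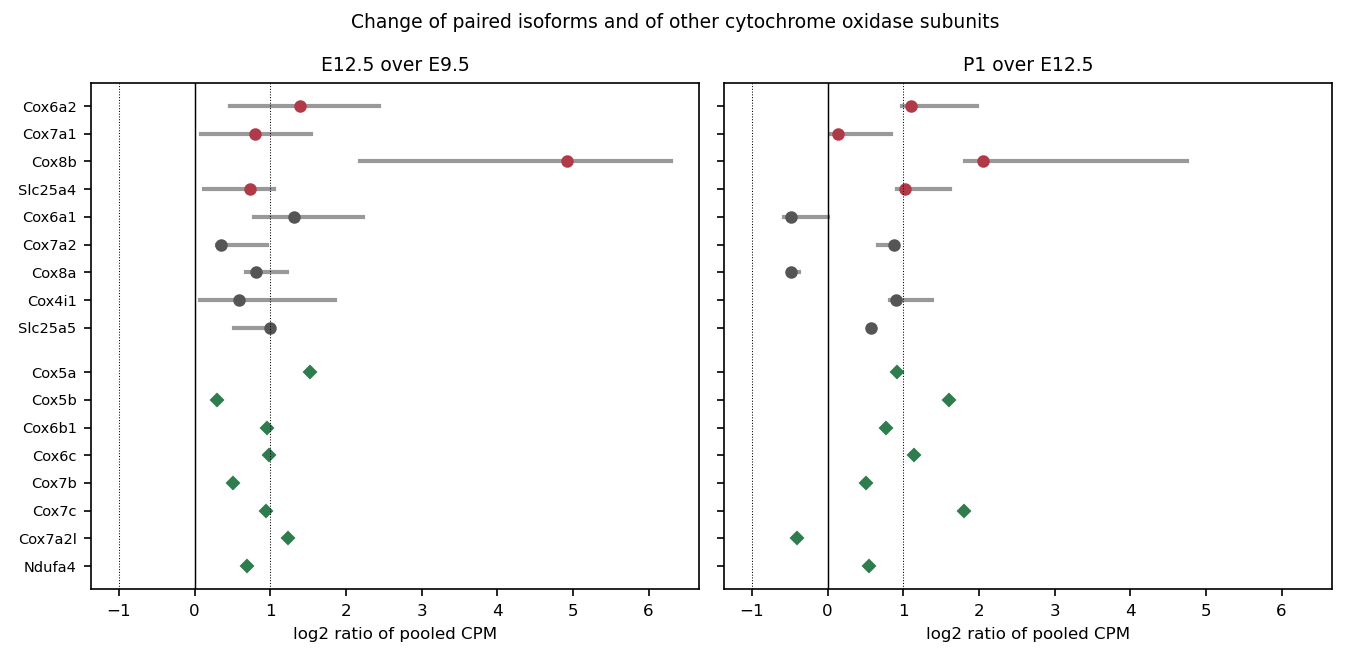
Log2 ratio of pooled CPM for E12.5 over E9.5 (left) and P1 over E12.5 (right). Red points are muscle isoforms and grey points their partners with the range over naming sets as grey lines, green diamonds are other complex IV subunits, and dotted lines mark 2-fold; Cox6a1 and Cox8a are below 0 in the right panel while Cox6a2 and Cox8b are above it.

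Of 24 assembly factors of complex IV, 22 were measured from E12.5 to P1, with 5 (22.7%) called higher, near the 25.1% of all genes, 2 called lower, against 23.4%, and a median log2 ratio of 0.09. The highest ratio was that of Lrpprc, which keeps mitochondrial mRNAs stable, and the lowest that of Sco1, a copper chaperone. Lrpprc stood at -5.16 from E9.5 to E12.5, at 4.61 from E12.5 to P1 and at -0.56 from E9.5 to P1. Sco1 stood at 2.76, -3.38 and -0.62, of which only -3.38 was called. From E9.5 to E12.5, 3 of 21 were called higher and 2 lower, against 9.14% and 21.7% of all genes, and from E9.5 to P1, 5 of 21 were called higher and none lower, against 18.1% and 34.5%. The testis forms Cox6b2, Cox7b2, Cox8c and Slc25a31 did not reach 10 CPM at any time point. Among 8 partners of energy export (voltage-dependent anion channels, the phosphate carrier and creatine kinases), 2 of 7 measured (28.6%) were called higher from E12.5 to P1, near the 25.1% of all genes: the muscle creatine kinase Ckm (7.35) and its mitochondrial form Ckmt2 (10.33). From E9.5 to P1, 5 of 7 were called higher, against 18.1% of all genes, and 1 lower, against 34.5%, the brain form Ckb (-2.33). From E9.5 to E12.5, 2 of 6 were called higher, against 9.14% of all genes.

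The isoforms were also counted together in each cell. All 3 muscle oxidase isoforms had counts in 3 of 42, 6 of 29 and 40 of 41 cells in order of age, and at P1 no cell held only 1 or 2 of them. These numbers repeat those of Cox8b given above, since every cell with Cox8b also held Cox6a2 and Cox7a1. Thinned to 100000 counts per cell, the numbers were 2 of 42, 5 of 29 and 37 of 38. At E9.5, 8 of 42 cells held none of the 3, and at E12.5 none of the 29 did. The embryonic cells, though deeper, thus held fewer of these isoforms than the P1 cells.

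**Figure D4:**
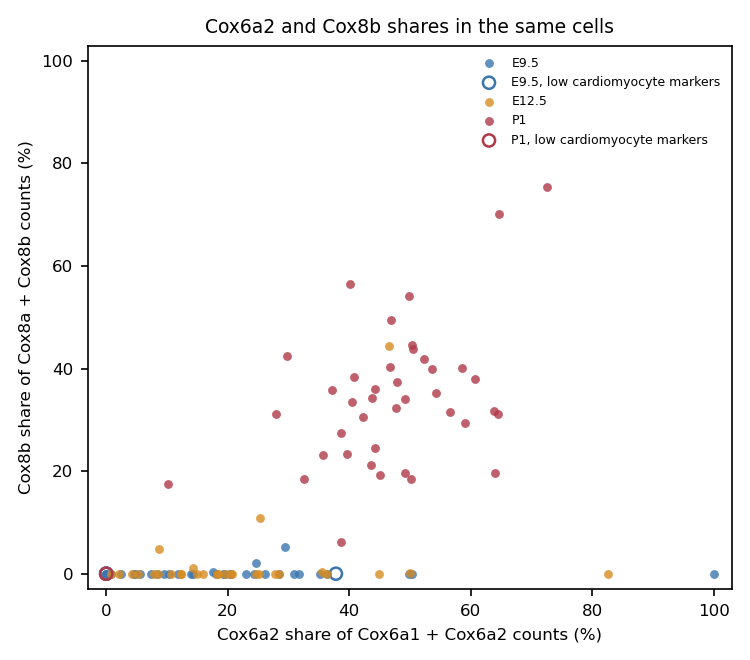
Share of Cox6a2 (horizontal, %) against share of Cox8b (vertical, %) in the same cells, coloured by time point, with open circles for cells under the CM marker limit. At P1 40 of 41 cells have both isoforms, while most embryonic cells lie on the horizontal axis.

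Within P1 the shares of Cox6a2 and Cox8b went together loosely, with Pearson's r of 0.42 and Spearman's rho of 0.35 over 40 cells of 1 naming set. The values for Cox6a2 and Cox7a1 were 0.16 and 0.19, and for Cox7a1 and Cox8b 0.34 and 0.30. These are descriptions over cells, which share their naming set.

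Cells without muscle oxidase isoforms were found both under and over the CM marker limit. Of the 8 E9.5 cells with none of the 3, the 5 of N530 were over the limit and the 3 of set C under it. In 3 of the 5 N530 cells the ubiquitous partner was scarce too, with under 10 counts of the Cox6a and Cox7a pairs (1 cell) or of the Cox8 pair (2 cells), and in 3 of the 5 nearly all translocase counts were of Slc25a4 (99.7 to 100%). The P1 cell with CM markers at 326 CPM had endothelial markers at 7697 CPM. It had 0 counts of Cox6a2, Cox7a1 and Cox8b beside 87 counts of Cox6a1, 16 of Cox7a2 and 15 of Cox8a, and a Slc25a4 share of 10.6%. At E9.5, 3 of the 14 set C cells had CM markers of 137 to 578 CPM, 0 counts of the same isoforms and Slc25a4 shares of 18.1, 27.8 and 37.3%. The other 11 set C cells at E9.5 had Slc25a4 shares of 38.4 to 83.7%. Shares between the lowest and the highest of these 3 were also seen over the marker limit, at 24.5 and 28.2% in N530 cells and at 25.3 and 32.4% in E12.5 set C cells. Another E9.5 cell under the limit, from N530, had CM markers at 2683 CPM, a Cox6a2 share of 37.8% and a Slc25a4 share of 62.6%. Without the cell under the limit, the lowest P1 share was 10.1% for Cox6a2, 4.46% for Cox7a1, 6.12% for Cox8b and 51.6% for Slc25a4.

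Genes with the most similar pattern were ranked for each muscle isoform by Spearman's rho of log2(CPM + 1) over the 112 cells, among 5985 genes found in 25% or more of them. Across cells of 3 ages and of different depths and naming sets, such values follow any gene that differs with age. The P1 value is therefore given beside each, over 41 cells that include the 1 under the CM marker limit. At E12.5 alone the values of the 5 nearest genes were 0.13 to 0.42 for Cox6a2 and 0.18 to 0.37 for Cox8b. For Slc25a4 they were 0.30 to 0.43 and for Cox7a1 0.17 to 0.53. For Cox6a2 the nearest were Cox4i1 (0.83, 0.66 at P1 alone), Cox8b (0.82, 0.53), the ATP synthase subunit Atp5o (0.82, 0.64), cardiac troponin I Tnni3 (0.81, 0.37) and Cox6c (0.81, 0.24). For Cox8b they were Ckm (0.85, 0.39), myoglobin Mb (0.84, 0.39), the fatty acid binding protein Fabp3 (0.83, 0.54), the prostaglandin D synthase Ptgds (0.82, 0.15) and Cox6a2. For Slc25a4 they were Atp5o (0.86, 0.38), Tnni3 (0.84, 0.53), Cox6c (0.82, 0.17), the complex I subunit Ndufa11 (0.82, 0.30) and the malate dehydrogenase Mdh1 (0.82, 0.40). The values for Cox7a1 were lower: the complex III subunit Uqcr11 (0.65, 0.41), 2010107E04Rik (0.64, 0.31), Atp5o (0.59, 0.47), Cox6b1 (0.59, 0.30) and Atp5j2 (0.57, 0.27). Between the members, the value for Cox6a2 and Cox7a1 was 0.55 over all cells and 0.52 at P1 alone, close to the 0.53 of Cox6a2 and Cox8b at P1. Cox7a1 stood at rank 143 in the list of Cox6a2, and Cox6a2 at rank 12 in that of Cox7a1.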

How the data were processed

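Single αMHC-GFP+ heart cells were captured on Fluidigm C1 chips and amplified with SMART-Seq V4, and libraries were read in single reads of 75 bases. The authors mapped reads with OLego and deposited featureCounts read counts, unnormalized, with 1 row for each gene symbol, on GRCm38 (mm10) per the labels. They also deposited TPM on a linear scale, computed by the authors from these counts with custom scripts; gene lengths are not given in the sources used here.

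Time points came from the labels. Cells with 2000 or more genes were kept. Counts were pooled per time point, CPM were computed from the sums, and shares were medians of per cell values. Intervals were exact binomial or exact Poisson at 95%, and cover counting error only, since the protocol carries no molecular identifiers. Where no count was seen, 3 counts were taken as the limit. Kept cells held 69522 to 7711355 counts. The spread of a difference was the SD over combinations of naming sets of 6 or more cells. Named genes were the 10 members, list genes passing 2-fold with the highest or lowest ratio or whose role is stated, and the 5 genes nearest to each of Cox6a2, Cox7a1, Cox8b and Slc25a4. Members and lists were chosen with earlier results of these data known. The TATAAA motif and the grouping of cells by Myl2 were added after values were seen. Of the 24 assembly factors, 10 were matched through older symbols. Transcripts of GENCODE on GRCm38 were searched for shared stretches of 75 bases, exact and on 1 strand. Promoter windows are RefSeq's (GRCm38.p6), and 7 of the 10 members matched.

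Pooling and the fold calls were tested on simulated data in which all cells of a time point shared 1 profile. Differences between cells or naming sets, such as single cells that hold most counts of a gene, were not simulated. Python 3.11.15, numpy 2.4.6, pandas 2.3.3 and scipy 1.17.1 were used, with R 4.3.3 and edgeR 4.0.16 for the alternative TMM scaling.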

Additional observations from a re-analysis of the deposited data

Results flagged for a closer look

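The 11 P1 cells with under 2000 genes were outside all comparisons, and Cox6a2, Cox7a1, Cox8b and Slc25a4 were there above the limit that 0 counts allow (4.20 CPM over these cells). Their total counts ran from 4903 to 149120. Pooled levels there were 1962 CPM for Cox6a2, 162 CPM for Cox7a1, 313 CPM for Cox8b and 11282 CPM for Slc25a4. The median shares were 52.8% for Cox6a2 (11 cells), 11.2% for Cox7a1 (10 cells), 44.8% for Cox8b (9 cells) and 63.5% for Slc25a4 (11 cells), and Cox4i2 had 0 counts in all 11.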

How the results depend on the processing

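No paired analysis was possible because the labels give no replicate numbers that cells of different time points share. A value was taken as moved where it left the larger of its SD over naming sets and its counting interval. Of 195 share values under alternatives, 154 stayed within that spread, 37 moved beyond it, and 4, all of Cox7a1, changed sign where the value reported had kept its sign in every combination of sets and exceeded its SD. In all, 21 had another sign than the value reported, reported values of 0 included. Its E12.5 minus E9.5 difference (3.69 points) was -1.89 with 3000 genes per cell, -0.247 with CM markers at 5000 CPM or more, -2.18 with that limit in set C alone (an alternative chosen after seeing the data) and 8.07 as a mean over cells. Its P1 minus E12.5 difference (-2.60) was 1.93 after thinning to 100000 counts, -0.608 with 3000 genes, -1.10 in set C, -0.961 in set C with CM markers, -5.83 as a mean, -8.09 on summed counts and -4.04 on TPM. Its P1 minus E9.5 difference (1.10) was -2.50 with 3000 genes, -2.70 with CM markers, -3.14 with CM markers in set C, -2.82 on summed counts and 7.03 thinned. The cause was not tested.

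The Cox6a2 differences of P1 from both embryonic time points kept their sign. P1 minus E12.5 (28.5) was 30.2 without the cells whose titles end in no, 23.9 as a mean, 24.2 on summed counts and 26.3 on TPM; P1 minus E9.5 (29.4) was 25.1 on summed counts, and E12.5 minus E9.5 (0.828) was 5.05 thinned and of either sign elsewhere. For Cox8b, P1 minus either embryonic time point (33.5) was 35.4 with 1000 genes, 32.02 with 3000 genes and 43.01 on TPM, and against E12.5 31.5 as a mean and 25.9 on summed counts. Its E12.5 minus E9.5 difference of 0 was 1.93 as a mean and 7.67 on summed counts, which rest on the N523 cell. The Cox8b log2 ratio of E12.5 over E9.5 (4.92) was -0.17 with 3000 genes per cell, a limit that leaves out the N523 cell. Cox4i2 differences of 0 were, as means and on summed counts, -1.02 and -3.32 for E12.5 minus E9.5, -0.390 and -0.0627 for P1 minus E12.5, and -1.41 and -3.38 for P1 minus E9.5. For Slc25a4, set C alone gave -1.08 for E12.5 minus E9.5 and 11.7 for P1 minus E9.5, and sets N530 and N523 gave 3.46 for P1 minus E12.5. In set C with CM markers, the E12.5 minus E9.5 difference was -11.5 and the P1 minus E9.5 difference 1.37, near the values over all cells (-10.4 and 1.42).

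Of 295 values of member ratios, 239 stayed within spread, 55 moved and 1, of Cox8b, changed sign after holding it in every combination of sets. TMM factors shifted all ratios by 0.43, -0.26 and 0.17. Counts of genes past 2-fold from E9.5 to E12.5 (790 higher, 1880 lower) were 1779 and 3685 on the fold of pooled CPM alone. Without the CPM filter, 3358 genes in place of 2037 were higher from E12.5 to P1 and 2531 in place of 1626 from E9.5 to P1. Depth limits Cox8b and Cox4i2 in single cells: 3 counts in the shallowest P1 cells exceed the pooled embryonic level of Cox8b at E9.5.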

Other observations

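Cells over the CM marker limit were also divided by Myl2, the ventricular myosin light chain, at 100 CPM, a choice made after values were seen. At E12.5 the 7 cells under that level had a median Cox7a1 share of 30.6% (0 to 66.7%), against 11.6% (0 to 62.4%) in the 22 cells above it. Within set C the medians were 29.9% (6 cells) and 10.6% (14 cells). The ranges overlapped. Median Cox6a2 shares were 25.2% and 17.1%, and median Slc25a4 shares 61.5% and 51.1%. Atrial markers (Sln, Myl7, Nppa and Myl4) summed to a median of 18578 CPM in the 7 cells and of 5471 CPM in the 22. At E9.5 the Cox7a1 medians stood the other way round, at 11.3% (9 cells) and 16.2% (27 cells). Those E9.5 groups differed little in atrial markers, with medians of 11165 and 12776 CPM, so the Myl2 level did not part them as at E12.5. In the 7 N523 cells of E12.5 above the level, atrial markers had a median of 21887 CPM and the Cox7a1 share a median of 14.8%. At P1 only 3 cells were under the Myl2 level, with Cox7a1 shares of 4.46 to 44.1% (median 22.7%), against 5.85 to 38.02% (median 12.9%) in the other 37. They had Cox6a2 shares of 38.6 to 50.2% and Cox8b shares of 18.4 to 54.1%, inside the ranges of those 37 cells.

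Cox7a1 and Slc25a4 shares went together in the E12.5 set C cells (Pearson's r 0.66, Spearman's rho 0.52, 20 cells), and the values were 0.56 and 0.38 in N523 (8 cells), 0.19 and 0.16 in E9.5 set C (11 cells), -0.09 and -0.05 in N530 (25 cells) and 0.41 and 0.09 at P1 (40 cells). In the E12.5 cell that held most Cox8b counts, CM markers summed to 14102 CPM, the lowest of the 29 cells of that age, atrial markers to 41344 CPM and Myl2 stood at 3404 CPM.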
